A study of Homo sapiens with 2 samples.

Results

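Ferroptosis is a form of cell death driven by iron-dependent peroxidation of membrane phospholipids, and 10 human genes of its control and of iron handling are described here out of 28038 genes listed in the expression table. They were taken by symbol: SLC7A11, GPX4, AIFM2, ACSL4, SAT1, FTH1, FTL, NCOA4, TFRC and HMOX1. Each symbol matched 1 row, and all 10 had at least 50 counts over both libraries, the minimum passed by 14157 genes.

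Poly(A) RNA was sequenced from 2 cultures labelled OVCAR-3, a line established from a human ovarian carcinoma. The control culture carried a blank viral vector, and the other overexpressed IGF2BP3, which binds RNA and recognises m6A. The labels do not say whether either culture was a clone or a pool, or how long it was grown, and no drug or inducer of ferroptosis is named. There was 1 library per group, so no replicate error and no p-value can be given, and every difference is between these 2 libraries.

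The cystine importer SLC7A11 and the selenoenzyme GPX4 form the main defence. Imported cystine feeds glutathione synthesis, and GPX4 uses glutathione to reduce phospholipid peroxides, while AIFM2 (FSP1) regenerates a lipid radical trap independently of glutathione. ACSL4 supplies the polyunsaturated phospholipids that are oxidised. Iron enters cells through the transferrin receptor TFRC, is stored in ferritin shells of FTH1 and FTL chains, and is set free when NCOA4 carries ferritin to the lysosome; HMOX1 releases iron from heme.

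Iron also acts on some of these transcripts. When iron is scarce, iron regulatory proteins bind hairpins called iron-responsive elements, which blocks translation when the hairpin lies before the coding region and protects the transcript when it lies behind it. The hairpin cores are shown because FTH1, FTL and TFRC, members that were all higher in the overexpression library, were the members that held one. The search, on the transcript strand alone, asked for a C, then 5 bases, the 6-base loop CAGTGN and 5 more bases able to pair with the 5 before the loop, with G to T pairs allowed. Sequences are from GENCODE 29 on GRCh38, 5′ to 3′ as DNA, with the loop in capitals.
FTH1 (before the coding region, chr11:61967580-61967596, minus strand): cttcaaCAGTGCttgga
FTL (before the coding region, chr19:48965341-48965357, plus strand): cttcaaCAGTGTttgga
TFRC (behind the coding region, chr3:196050985-196051001, minus strand): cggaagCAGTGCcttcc
TFRC (behind the coding region, chr3:196050581-196050597, minus strand): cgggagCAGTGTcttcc
TFRC (behind the coding region, chr3:196050516-196050532, minus strand): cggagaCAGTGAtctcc
TFRC (behind the coding region, chr3:196050469-196050485, minus strand): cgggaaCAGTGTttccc

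Among the 14978 listed genes with an annotated coding transcript, 266 (1.78%) held such a match; a match describes letters and possible pairs only. The 225 of them that passed the count minimum had a median log2 ratio of 0.02, against 0.00 over all measured genes.

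The control library held 43190215 counts in all and the other 48017861. IGF2BP3 itself had 2944 and 6376 counts, a ratio of 1.96 (95% counting interval 1.88 to 2.05). Most markers of the labelled cell type were low or not listed. Of 5 epithelial markers only KRT18, at 103 and 102 CPM (counts scaled to a library of 1000000), reached 10 CPM in the control library. Of 4 chosen serous carcinoma markers 2 were listed, and these summed to 0.739 and 0.669 CPM. The epithelial adhesion gene CDH1 had 2 counts in each library and the Mullerian factor PAX8 28 and 32. WFDC2, the other listed serous marker, had 4 and 0 counts. Of 4 mesenchymal markers 3 reached 10 CPM in the control library. VIM, a mesenchymal filament, stood at 2175 CPM in the control and 2149 with overexpression, while FN1 stood at 3.02 and 2.36 CPM. Macrophages handle much iron and heme, and the 4 listed of 5 chosen leukocyte and macrophage markers summed to 0.623 and 0.877 CPM, so they were near 0 in both.

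Between these libraries, SLC7A11, SAT1, ACSL4, FTL and TFRC were higher with IGF2BP3 overexpression by 1.2-fold or more, while GPX4 and AIFM2 stood near 1-fold and HMOX1 was slightly lower. That is 5 of 10 members on the scale of CPM plus 1, beside 7.49% of all measured genes. None of the 10 was at least 1.2-fold lower, beside 5.74% of all genes. At 1.3-fold 3 members were higher, beside 3.23%, and at 1.5-fold none, beside 1.02%; none was lower at either fold, beside 2.2% and 0.643%. A log2 ratio above 0 was seen in 7 of 10 members, beside 51.1% of all genes. The members were picked with earlier results of these data known, so these shares describe the members and carry no test.

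Counting intervals lay wholly above 1-fold for 7 members, beside 22.8% of all genes, and wholly below for HMOX1 alone, beside 18.6%. From halved counts, the numbers were again 7 and 1, beside 15.9% and 10.9%. Deeply counted genes have narrow intervals, so the shares among all genes, many of them thinly counted, are not like for like. The median log2 ratio was 0.29 over the members. RNA from a whole culture was measured, so a change in the share of cells of some kind and a change in RNA per cell cannot be told apart.

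**Figure D1:**
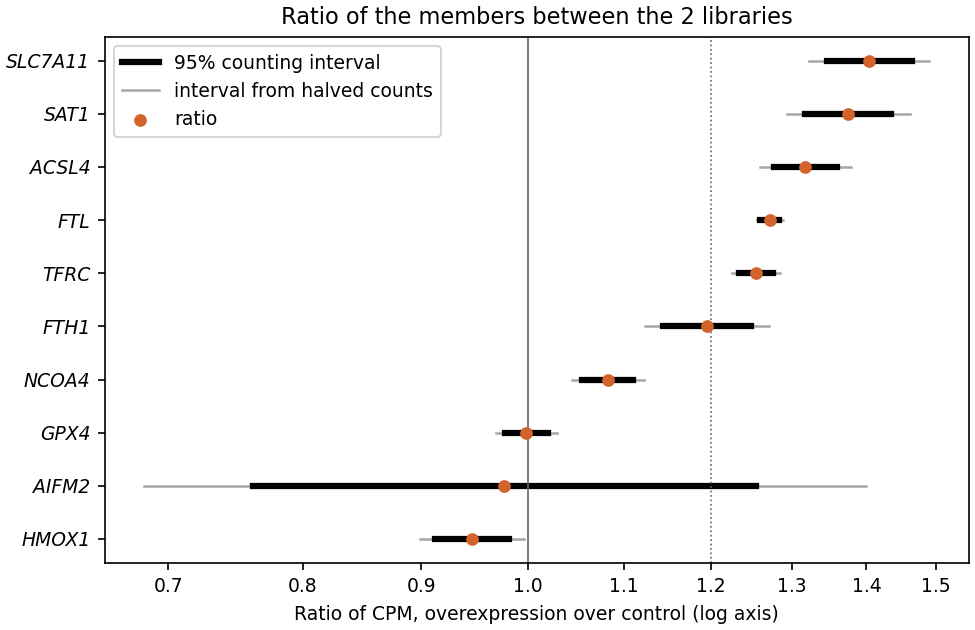
Ratio of CPM, overexpression over control, for the 10 members on a log axis, from 1 library per group. Points are ratios, thick bars 95% exact counting intervals, thin bars the same from halved counts; the solid line is 1-fold and the dotted line 1.2-fold. SLC7A11 lies highest at 1.404 and HMOX1 lowest at 0.946, and the wide bar of AIFM2 comes from its 126 and 136 counts.

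Of the peroxide defence genes, SLC7A11 was higher and GPX4 and AIFM2 were not detectably different. SLC7A11 (ENSG00000151012, chr4:138164097-138242349, minus strand), the cystine-importing chain of the cystine-glutamate exchanger, had 3602 counts in the control and 5587 with overexpression. Scaled for depth, that was 83.1 against 117 CPM, a ratio of 1.404 (1.35 to 1.46, or 1.32 to 1.49 from halved counts). It was the furthest from 1-fold of the 10 members, and 98.3% of all measured genes had a lower log2 ratio.

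Its antisense partner SLC7A11-AS1 had 21 and 46 counts, and covers 8.97% of the exonic bases of SLC7A11 on the opposite strand. The strand setting of the counting is not given in the sources used here, so reads of the pair cannot be told apart. The part of antisense reads in the SLC7A11 counts was not tested. SLC3A2, the heavy chain that carries SLC7A11 to the membrane, went the other way, with 123 CPM in the control and 105 with overexpression, a ratio of 0.855 (0.823 to 0.889).

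GPX4 (ENSG00000167468, chr19:1103926-1106791, plus strand) had 16076 and 17735 counts, which is 371 CPM in each library. Its ratio was 0.999 with an interval of 0.978 to 1.02, so GPX4 differed by less than its counting error. Per length, GPX4 stood at 23.4 times the level of SLC7A11 in the control and at 16.6 times with overexpression.

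AIFM2 (ENSG00000042286, chr10:70098223-70132934, minus strand) was by far the lowest member. It had 126 and 136 counts, 2.91 and 2.84 CPM, and a ratio of 0.977. Its interval of 0.761 to 1.26, which halved counts widen to between 0.683 and 1.399, still held a ratio as high as that of TFRC. The gene overlaps the histone gene H2AFY2 on the other strand, but exons of that gene cover only 0.214% of the exonic bases of AIFM2.

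An antioxidant response element, the motif bound by the stress factor NRF2, was searched as TGACNNNGC on both strands of the RefSeq promoters (GRCh38.p14), which reach from 250 bases before to 50 after a gene's RefSeq start. Of the 10 members 7 were matched in that table; SLC7A11, FTH1 and HMOX1 were not. AIFM2 alone of the 7 held the letters, against 13.6% of 27305 promoters, and its site is shown as the one match, with the motif in capitals and 8 bases to either side, read along the gene's strand. The motif runs there on the opposite strand. It lies before the RefSeq start of AIFM2 but inside the gene as GENCODE 29 bounds it above.
AIFM2 (chr10:70132831-70132855, gene on the minus strand): gcacgagtGCTGAGTCAcgccccgc
The amino acid response motif TGATGNAAN, of the ATF4 type, was found in none of the 7 and in 3.67% of all promoters. A match is a description of letters in this window only.

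Both members that act on the lipid and polyamine side were higher. ACSL4 (ENSG00000068366, chrX:109624244-109733403, minus strand), which activates arachidonic and other polyunsaturated fatty acids, had 6503 and 9467 counts, or 150 and 198 CPM. The ratio was 1.32 (1.28 to 1.36). SAT1 (ENSG00000130066, chrX:23783173-23786226, plus strand), the acetyltransferase that starts polyamine breakdown and is known as a p53 target in ferroptosis, had 3519 and 5346 counts. That was 81.2 and 112 CPM, a ratio of 1.38 (1.32 to 1.44). These 2 genes and SLC7A11 were the 3 members past 1.3-fold on CPM plus 1. Of them 1 is from the defence and 2 are known to favour lipid peroxidation, but which 3 pass depends on the setting. With trends over GC content and gene length removed, ACSL4 fell short, at a log2 ratio of 0.30, and FTL passed, at 0.39.

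The iron uptake receptor and both storage chains were higher. TFRC (ENSG00000072274, chr3:196027183-196082189, minus strand), the receptor for transferrin, had 23482 and 32546 counts, or 542 and 680 CPM, a ratio of 1.25 (1.23 to 1.28). FTL (ENSG00000087086, chr19:48965301-48966878, plus strand), the ferritin light chain, had 77321 and 108642 counts, or 1785 and 2270 CPM, a ratio of 1.27 (1.26 to 1.28). FTH1 (ENSG00000167996, chr11:61959718-61967660, minus strand), the heavy chain with the ferroxidase site, had 3625 and 4785 counts, or 83.7 and 99.97 CPM.

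The ratio of FTH1 was 1.19 (1.14 to 1.25), just short of 1.2-fold. Its interval overlapped that of TFRC and did not reach that of FTL, though it did from halved counts (1.12 to 1.27 against 1.26 to 1.29). With trends over GC content and gene length removed, FTH1 passed 1.2-fold, at a log2 ratio of 0.28, and TFRC no longer did, at 0.24. The count of members past 1.2-fold was 5 in that setting too.

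NCOA4 (ENSG00000266412, chr10:46005088-46030714, minus strand), the receptor that takes ferritin to the lysosome, had 11052 and 13220 counts. At 255 and 276 CPM its ratio was 1.08 (1.06 to 1.11), below those of the 2 ferritin chains, with intervals that did not overlap. HMOX1 (ENSG00000100292, chr22:35380361-35394214, plus strand), the inducible heme oxygenase, had 5680 and 5938 counts, or 131 and 124 CPM. Its ratio of 0.946 had an interval of 0.912 to 0.982; halved counts gave 0.899 to 0.997, which ends close to 1-fold. RBFOX2, at least 2-fold different with 531 and 1651 counts, lies within 1 Mb of HMOX1. Of all measured genes 96 were at least 2-fold different. How many genes have one of these within 1 Mb was not counted, so neighbours named here and below are descriptions only.

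**Figure D2:**
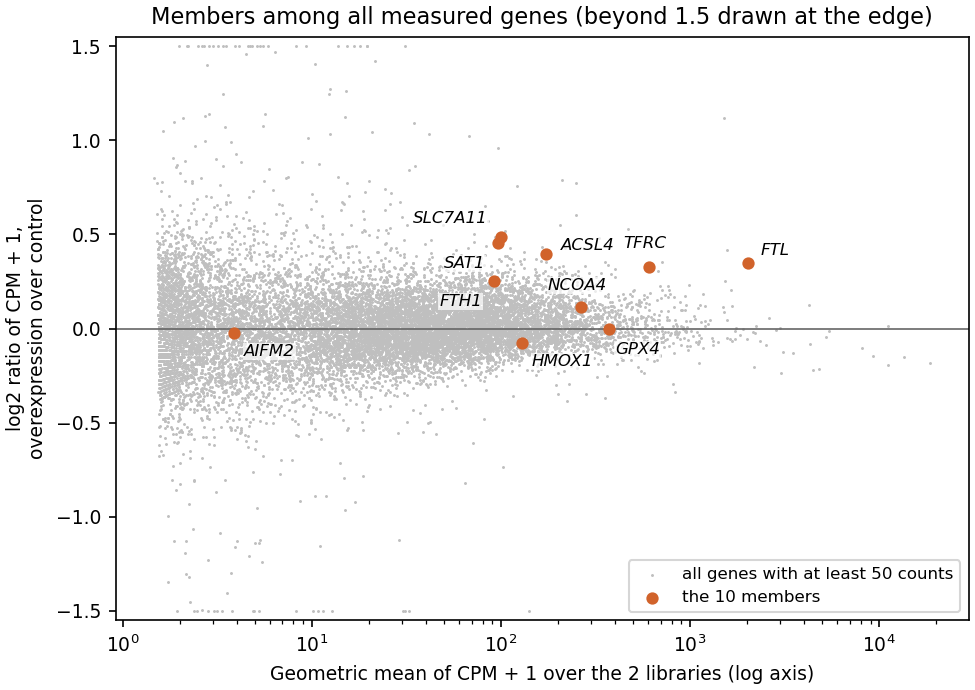
Difference of each gene (log2 of CPM plus 1, overexpression minus control) against the geometric mean of CPM plus 1 (log axis), for the 14157 genes with at least 50 counts; ratios beyond 1.5 are drawn at the edge. The members are the large points: SLC7A11 lies above 98.3% of all measured genes, SAT1 above 98.0%, ACSL4 above 97.2%, FTL above 96.1% and TFRC above 95.5%, GPX4 above 48.4% and HMOX1 above 28.2%.

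Levels of different genes are compared by FPKM, the deposited level per kilobase of gene length, and so rest on the length the authors used. FTL stood highest, at 2055 FPKM in the control and 2598 with overexpression, and ranked 12th among all listed genes in each. GPX4 followed at 202 and 201, NCOA4 at 64.2 and 69.0, HMOX1 at 57.0 and 53.6, and FTH1 at 41.9 and 49.7. SAT1 stood at 32.8 and 44.9, TFRC at 31.3 and 39.0, ACSL4 at 15.1 and 19.8, SLC7A11 at 8.65 and 12.1, and AIFM2 at 0.568 and 0.552. The order was the same in both libraries. The deposited values imply a length of 17376 bases for TFRC and 9971 for ACSL4, against 7887 and 6415 exonic bases in GENCODE 29. Over exonic bases, an alternative chosen after seeing the data, TFRC stood at 68.9 and 85.9 FPKM and ranked 3rd of the 10 members, above NCOA4, in place of 7th. ACSL4 stood at 23.5 and 30.7 and stayed 8th.

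Some neighbours in the deposited order lay close. In the control library the halved-count intervals of SAT1 (31.3 to 34.4 FPKM) and TFRC (30.7 to 31.9) overlapped; in the overexpression library they did not (43.2 to 46.6 against 38.4 to 39.6). HMOX1 and FTH1 were 57.0 against 41.9 FPKM in the control. With overexpression they were 53.6 against 49.7, and the halved-count intervals, 51.7 to 55.6 and 47.8 to 51.8, just overlapped.

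**Figure D3:**
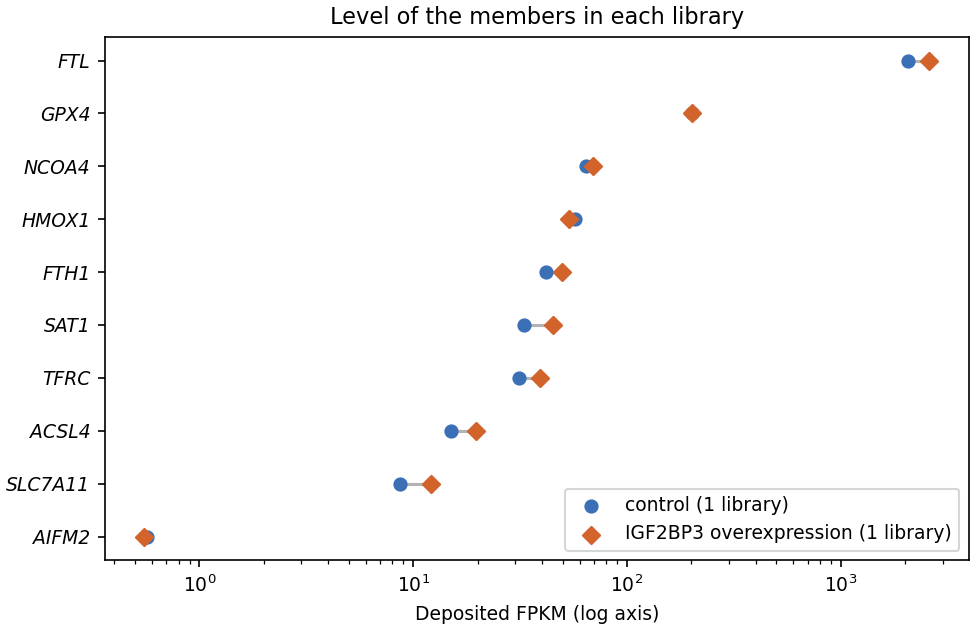
Deposited FPKM of the 10 members on a log axis in the control library (circles) and the overexpression library (diamonds), ordered by the control level. FTL, at 2055 and 2598 FPKM, is the highest in both libraries and AIFM2, at 0.568 and 0.552, the lowest, and the order does not change between them. The place of TFRC rests on the deposited gene length.

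Ferritin levels need care, since both chains have many processed copies in the genome. Of the 31-base words in the longest coding transcript of FTH1, 83.0% also occurred in another annotated gene, on either strand. The most, 66.1% of all its words, were in BEST1, which overlaps FTH1 on the opposite strand and is not a processed copy. Exons of BEST1 cover 62.4% of the exonic bases of FTH1, and BEST1 had 11 and 4 counts. For FTL 33.3% of words were shared, for NCOA4 15.5% and for SLC7A11 12.3%, of which SLC7A11-AS1 holds the most. AIFM2 shared 3.20% and HMOX1 2.01%, while GPX4, ACSL4, SAT1 and TFRC shared none. Per length, the light chain stood at 49.1 times the heavy chain in the control and at 52.2 times with overexpression, and the part of shared sequence in that gap was not tested.

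The table listed 15 processed copies of FTH1, which together held 189 and 252 counts, or 5.21% and 5.27% of those of FTH1. The 4 listed copies of FTL held 152 and 261 counts. Among them FTLP3 had 139 and 232 counts, a ratio of 1.51 (1.22 to 1.88, or 1.11 to 2.06 from halved counts). With the copies added, an alternative chosen after seeing the data, the ratio was 1.196 for FTH1 and 1.27 for FTL, against 1.195 and 1.27 without them.

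In the wider pathway, 114 of 124 listed genes in 10 lists passed the count minimum. Of these 9 were at least 1.2-fold higher (7.89%, beside 7.49% of all genes) and 4 at least 1.2-fold lower (3.51%, beside 5.74%). How these shares compare depends on the pseudocount: with 5 CPM in place of 1, 7 list genes were higher (6.14%, beside 2.87% of all genes) and 3 lower (2.63%, beside 1.34%), and 5 members were still higher. With FPKM plus 1 they were 6 (5.26%, beside 3.28%) and 3 (2.63%, beside 2.97%). The median log2 ratio of the lists, at 0.02, was near the 0.00 of all genes. Over the 10 members the median was 0.29. The counts for each list below stand beside the same shares of all genes: 7.49% higher, 5.74% lower and 51.1% above 0. Each list holds only 4 to 19 measured genes, so its counts are descriptions.

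**Figure D4:**
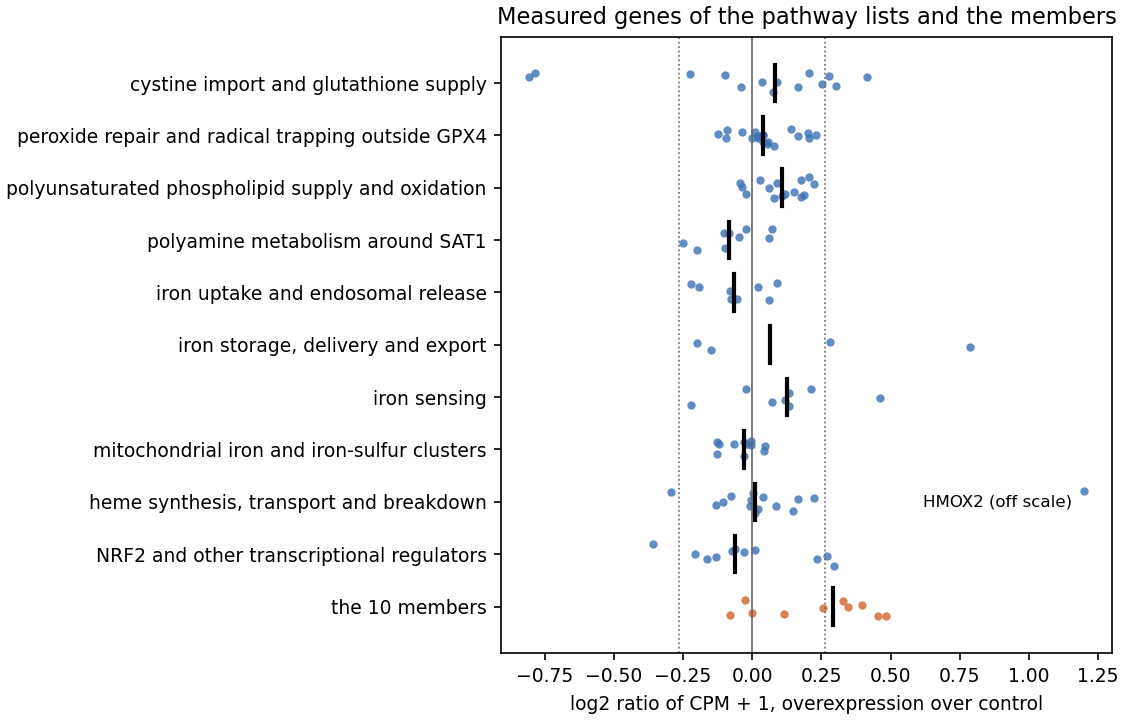
Difference (log2 of CPM plus 1, overexpression minus control) of each measured gene of the 10 pathway lists (blue) and of the 10 members (orange), with the median of each as a black bar and dotted lines at 1.2-fold. Most list genes lie between the dotted lines. Of those within the scale, CP at 0.79, CBS at -0.78 and CHAC1 at -0.81 lie furthest out. HMOX2 at 3.42 lies off the scale and is drawn at its edge.

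Among 14 measured genes of cystine import and glutathione supply, 3 were at least 1.2-fold higher (21.4%, beside 7.49% of all genes). Another 2 were lower (14.3%, beside 5.74%). TXNRD1, the thioredoxin reductase, was at 1364 and 1819 CPM, a ratio of 1.33 (1.32 to 1.35). GCLC, the catalytic subunit of the first enzyme of glutathione synthesis, stood at a log2 ratio of 0.30. CHAC1, which breaks glutathione down, had 156 and 78 counts, at 0.453 times its control level (0.340 to 0.598). CBS, of the transsulfuration route to cysteine, had 1023 and 636 counts, at 0.563 times (0.509 to 0.622).

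None of 19 genes of peroxide repair and radical trapping outside GPX4 passed 1.2-fold in either direction. Of all genes 7.49% were higher and 5.74% lower. Above 0 lay 14 of the 19 (73.7%), beside 51.1% of all genes. Furthest out on the log2 scale were NQO1, a quinone reductase, at 0.23, SEPSECS, of selenocysteine synthesis, at 0.21, GCH1, which starts tetrahydrobiopterin synthesis, at 0.20, and the sterol reductase DHCR7 at 0.16. None of 15 genes of polyunsaturated phospholipid supply passed 1.2-fold either, and 12 (80%) lay above 0, beside 51.1% of all genes. ELOVL5, a fatty acid elongase, had a log2 ratio of 0.22, with ALOX12, a lipoxygenase with 68 and 94 counts, at 0.21, ACSL3 at 0.19 and the acyltransferase LPCAT3, which acts after ACSL4, at 0.18. The counting interval of the ratio of ALOX12, 0.906 to 1.74, held 1-fold. Exons of EMG1 on the opposite strand cover 65.6% of those of LPCAT3, and CLSTN3, with 10 and 142 counts, lies within 1 Mb.

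None of the 9 measured polyamine genes around SAT1 passed 1.2-fold, and their median log2 ratio was -0.09. SAT2, a relative of SAT1, stood at -0.25 on that scale, SMOX, a spermine oxidase with 156 and 144 counts, at -0.20, SRM, the spermidine synthase, at -0.10, and ODC1, which makes putrescine, at -0.10. For SMOX the counting interval of the ratio, 0.662 to 1.05, held 1-fold.

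Other iron uptake genes lay nearer to 1-fold than TFRC. Of 8 measured genes of iron uptake and endosomal release none passed 1.2-fold, and the median log2 ratio was -0.07. The lysosomal channel MCOLN1 stood at -0.22 on that scale, the endosomal iron reductase STEAP3 at -0.19, and the transporters SLC39A8 and SLC39A14 at 0.09 and -0.08. In storage, delivery and export, 2 of 4 measured genes were past 1.2-fold, both higher (50%, beside 7.49% of all genes). CP, the ferroxidase ceruloplasmin, was at 159 and 274 CPM, a ratio of 1.73 (1.68 to 1.78), further from 1-fold than any of the 10 members. Exons of HPS3 on the opposite strand cover 19.4% of its exonic bases. HFE, which modulates transferrin uptake, stood at a log2 ratio of 0.28, with BTN2A1, at 240 and 10 counts, within 1 Mb of it. PCBP2 was at a log2 ratio of -0.20 and PCBP1, from 67 and 62 counts, at -0.15; both are chaperones that load ferritin. AAAS, with 212 and 67 counts, lies within 1 Mb of PCBP2. The iron exporter SLC40A1 had 0 and 2 counts, below the floor of 3 counts.

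Of 8 iron sensing genes 1 passed 1.2-fold, on the higher side (12.5%, beside 7.49% of all genes). HERC2, a ubiquitin ligase with known partial copies in the genome, was at 60.3 and 83.4 CPM, a ratio of 1.38 (1.32 to 1.45), and has GOLGA8M, with 60 and 192 counts, within 1 Mb. The iron regulatory proteins, which bind the hairpins printed above, were slightly higher: IREB2 (IRP2) at a ratio of 1.16 (1.12 to 1.203) and ACO1 (IRP1) at 1.098 (1.06 to 1.14). EPAS1 stood at a log2 ratio of -0.22.

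Mitochondrial iron and iron-sulfur cluster genes showed little difference, with none of 11 past 1.2-fold. Of these 9 lay below 0 and 2 (18.2%) above, beside 51.1% of all genes above. The median log2 ratio was -0.03. SLC25A37, the mitochondrial iron importer, stood at -0.13 on that scale and SLC25A28 at -0.06. For SLC25A28 the counting interval of the ratio, 0.883 to 1.03, held 1-fold. Of 15 genes of heme synthesis, transport and breakdown 1 (6.67%) was past 1.2-fold in each direction. Of all genes 7.49% were higher and 5.74% lower. HMOX2, the constitutive relative of HMOX1, had 34 and 869 counts, a ratio of 23.1 (16.4 to 33.6), beside 0.946 for HMOX1. It overlaps NMRAL1 on the opposite strand, which had 104 and 30 counts, and CDIP1 (296 and 124) and DNAJA3 (302 and 856) within 1 Mb were also at least 2-fold different; their part in the value was not tested. The heme transporters FLVCR2 and FLVCR1 stood at log2 ratios of -0.29 and 0.22, and the exporter ABCG2, with SPP1 (44159 and 105980 counts) within 1 Mb, at 0.17.

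Of 11 transcriptional regulators 2 (18.2%, beside 7.49% of all genes) were past 1.2-fold higher and 1 (9.09%, beside 5.74%) lower. Above 0 lay 4 (36.4%), beside 51.1% of all genes, and 7 lay below. NFE2L2 (NRF2) was at 163 and 149 CPM, a ratio of 0.912 (0.883 to 0.943), its partner KEAP1 at 0.864 (0.817 to 0.913), and ATF4, an activator of SLC7A11, at 0.893 (0.866 to 0.920). ATF3, a repressor of SLC7A11, was the lowest of the list at a log2 ratio of -0.36. SP1 at a log2 ratio of 0.29 and BACH1, the repressor of HMOX1 and ferritin genes, at 0.27 were the 2 past 1.2-fold on the higher side, and WWTR1 stood at 0.23. SP1 also lies within 1 Mb of AAAS. The authors' deposited table gives log2 fold changes of 0.48 for SLC7A11, 0.45 for SAT1, 0.39 for ACSL4, 0.34 for FTL and 0.32 for TFRC.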

How the data were processed

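Whole-number counts and FPKM values per gene were deposited by the authors for 2 libraries, per the file headers, with a log2 fold change that the authors computed. The submitters' processing notes name the build GRCh38; no source used here gives the aligner, the counter or its strand setting. Counts were scaled by TMM (edgeR 4.0.16, R 4.3.3) and a gene's difference is the log2 ratio of CPM plus 1. Ratios carry 95% exact (Clopper-Pearson) intervals, for counting error only; reads have no molecular identifiers. Among counts of 1 to 20, 64.1% and 63.3% were even, as if both mates of a pair were counted, so intervals from halved counts were also made. The 10 members and all lists were chosen with earlier results of these data known. Named genes are the members, copies of them, overlapping genes and the 4 genes of each list furthest from 0; other genes, such as SLC3A2, NFE2L2, ATF4, GPX1 and strongly different neighbours, were named after their values were seen. A few genes that the rule or the list counts include are not reported here by name. The 2 libraries give 1 difference per gene, so no gene of like pattern is named. Positions came from GENCODE 29, which held 26424 of 28038 IDs. Alternatives were DESeq2 1.42.0 size factors, library totals, FPKM plus 1, other pseudocounts, minimums and folds, and removal of GC and length trends with splines (scikit-learn 1.9.0, Python 3.11.15). The ratio and interval computation was tested on simulated independent counts. These held neither counts doubled by pairs nor variation between cultures, so that test covers neither.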

Additional observations from a re-analysis of the deposited data

How the results depend on the processing

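Removing trends over GC content and gene length moved 5 members beyond their counting interval: SLC7A11 to a log2 ratio of 0.39, ACSL4 to 0.30, TFRC to 0.24, FTL to 0.39 and GPX4 to 0.064. It put IGF2BP3 at 0.88, as did FPKM plus 1. Other scalings, pseudocounts and count minimums left every member within its interval and 5 members past 1.2-fold. With a fold of 1.3, 3 members were higher, with list genes at 4 higher and 2 lower; with 1.5, 0 members were higher, with 2 list genes higher and 2 lower. The main list counts were 9 and 4. With FPKM plus 1, ACSL4 fell short of 1.3-fold, at a log2 ratio of 0.37. Over GENCODE exonic bases 5 of 10 members kept their place in the order of levels in each library. Values near 0 changed sign: GPX4 was -0.0019 as reported, 0.0033 with DESeq2 size factors and -0.01 by library totals, and AIFM2 was -0.02 as reported and 0.01 with trends removed. HMOX1 kept its sign but stood nearer 1-fold with trends removed, at -0.03 against -0.08 as reported. The causes were not tested. Depth limits AIFM2 most. No paired analysis was possible because each group holds 1 library.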

Other observations

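Some genes that most cells use were almost without counts. GPX1, the cytosolic glutathione peroxidase, had 2 and 4 counts, while GPX4 had 16076 and 17735. The ferredoxin FDX2 had 1 and 0 counts and the intronless chaperone gene PCBP1 67 and 62. Exons of another annotated gene cover 70.9% of the exonic bases of FDX2 and 52.2% of those of PCBP1, but 0% of those of GPX1. FTH1, covered to 62.4%, had fewer counts than FTL by a wide margin. These levels are as the table lists them, and whether the counting lowered them was not tested.

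The partner chains of the cystine importer went opposite ways, with SLC7A11 at 1.404 and SLC3A2 at 0.855 times the control level, and so did the acetyltransferases SAT1 at 1.38 and SAT2 at 0.838. These values are differences between 2 libraries, and no explanation was weighed.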
